A study of Mus musculus with 21 samples.

Results

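This account covers 10 genes known as markers of trophoblast and extraembryonic ectoderm: the transcription factors Elf5, Cdx2, Hand1, Gata2, Gata3 and Tead4, and the keratins Krt8, Krt18, Krt7 and Krt19. They were taken by symbol from the 33861 genes of the deposited count table, and all 10 were present. The series holds RNA sequencing of 21 mouse samples, which fall into 7 groups of 3. FS1 and FS2 are the lines 5cdr1 and 5cdr2 of formative stem cells, kept in medium A3XR and taken at passages 10, 11 and 18 (FS1) and 12, 13 and 16 (FS2). AF and AFX are epiblast stem cells (EpiSCs, cultured cells with features of the postimplantation epiblast) whose descriptions carry E14, a mouse embryonic stem cell line, and each was taken at passages 14, 15 and 16 from the medium that gives the group its name. E5.0, E5.5 and E6.0 are epiblasts collected one by one at those embryonic days, from embryos numbered 1, 2 and 4 at E5.0 and 1, 2 and 3 at the later stages. The last stage is E6.0 in the titles and 6.5 in another label field. The labels give no genotype beyond these line names and no strain.

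The trophectoderm is the outer layer of the blastocyst, and after implantation its polar part forms the extraembryonic ectoderm, which sits directly on the epiblast and holds the trophoblast stem cells of the placenta. TEAD4 acts with YAP at the head of this lineage and is needed for Cdx2, and GATA3 acts beside CDX2. ELF5 holds the trophoblast stem cell state after implantation, GATA2 and GATA3 work in trophoblast at large, and HAND1 drives trophoblast giant cells. KRT8 and KRT7 are type II keratins and KRT18 and KRT19 type I keratins, and a type II chain pairs with a type I chain to build the filaments of simple epithelia. None of the 10 is particular to trophoblast: CDX2 and HAND1 also mark posterior and extraembryonic mesoderm, GATA factors many lineages, and KRT8, KRT18 and KRT19 visceral endoderm and other simple epithelia. In a bulk sample, a few cells with much of an RNA and many cells with little of it cannot be told apart.

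The cultured samples held 1000 cells each and an embryonic sample was 1 epiblast, so the source of the RNA and its amount cannot be told apart in comparisons between culture and embryo. FS cells differ from AF and AFX cells in line and medium together, which cannot be told apart either, whereas AF and AFX share E14. Replicates in culture were passages of a line, so the p-values measure the spread between passages. Where FS1 and FS2 form 1 group, the p-values also measure the spread between these lines. Total counts ran from 5827093 to 15916800 per sample, and 3 counts in a sample were worth 0.171 to 0.589 CPM (counts per 1000000 of the library size, scaled by TMM). The 6 epiblast genes checked (Pou5f1, Sox2, Nanog, Otx2, Dnmt3b and Fgf5) had counts in all 21 samples, with a summed level of 1110 to 6774 CPM. Dnmt3b, the de novo DNA methyltransferase of the postimplantation epiblast, led this list at 548 to 5722 CPM.

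Of the 4 keratin genes, 3 lie on chromosome 15 (GRCm38, the build the submitters' processing notes name as mm10): Krt8 at 101996698 to 102004482 on the minus strand, Krt18 at 102028180 to 102032027 on the plus strand and Krt7 at 101411043 to 101430313 on the plus strand. Krt8 and Krt18 are neighbours in head-to-head order, 23697 bases apart, and Krt7 lies 566384 bases from Krt8. Krt19 is on chromosome 11 at 100140810 to 100148665 (minus strand). Promoter windows from RefSeq (GRCm38.p6) were found for 7 of the 10 members, 9 windows in all. The 3 windows on chromosome 15 are shown because the 3 keratins were all lower in FS than in AF, while Krt7 stood far below Krt8 and Krt18 in level. Each runs on the gene's own strand from 250 bases before the RefSeq start to 30 bases after it, and capitals mark matches, on either strand, to AGATAA, bound by the GATA family, GGAATG, bound by TEAD factors, TGACTCA, bound by AP-1, GGGCGG, bound by Sp1 and KLF factors, or TATAAA, the core promoter box. RefSeq and GENCODE M21, the source of the gene positions, place the starts of these genes differently.
Krt8 (chr15:102004313-102004592, minus strand): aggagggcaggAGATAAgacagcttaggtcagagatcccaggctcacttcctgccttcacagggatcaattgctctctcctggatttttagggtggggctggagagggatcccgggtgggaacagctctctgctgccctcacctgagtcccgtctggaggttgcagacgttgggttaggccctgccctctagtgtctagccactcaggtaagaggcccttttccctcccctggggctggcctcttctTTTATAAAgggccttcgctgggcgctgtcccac
Krt18 (chr15:102027966-102028245, plus strand): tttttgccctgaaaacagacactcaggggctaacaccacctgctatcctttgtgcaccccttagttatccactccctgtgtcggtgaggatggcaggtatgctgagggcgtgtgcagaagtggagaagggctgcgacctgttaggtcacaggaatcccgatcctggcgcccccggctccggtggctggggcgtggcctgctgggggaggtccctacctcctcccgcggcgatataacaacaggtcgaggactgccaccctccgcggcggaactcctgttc
Krt7 (chr15:101412153-101412432, plus strand): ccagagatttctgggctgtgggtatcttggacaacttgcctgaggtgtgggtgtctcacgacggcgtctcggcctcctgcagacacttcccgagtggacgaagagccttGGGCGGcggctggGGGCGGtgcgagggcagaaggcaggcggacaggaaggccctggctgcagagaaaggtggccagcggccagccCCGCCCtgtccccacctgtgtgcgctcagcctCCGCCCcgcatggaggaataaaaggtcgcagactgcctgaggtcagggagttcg
The Krt8 window held AGATAA at bases -239 to -234 from the start, and TATAAA on both strands, overlapping each other, at -1 to 5 and -3 to 3. The Krt7 window held GGGCGG 4 times, on the plus strand at -141 to -136 and -128 to -123 and on the minus strand at -56 to -51 and -24 to -19. None of the 5 motifs matched in the Krt18 window, which says only that these letters are not in it. Over all 32851 RefSeq windows of 300 bases, AGATAA was in 11.2%, GGAATG in 14.7%, TGACTCA in 5.2%, GGGCGG in 35.7% and TATAAA in 13.6%. Among the 9 member windows GGAATG was in 1 of Elf5 and 1 of Gata2, and GGGCGG also in those of Gata2 and Gata3.

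Krt18 and Krt8 were the most abundant RNAs of the set by group mean in all 7 groups, and the transcription factors were low or at 0. On a scale that compares genes, CPM per kilobase of exon, the AF means were 164 for Krt18, 116 for Krt8 and 49.2 for Krt19, against 3.02 for Tead4, 1.66 for Gata3, 1.35 for Krt7, 0.643 for Cdx2, 0.437 for Hand1, 0.15 for Gata2 and 0 for Elf5. In the 6 FS samples the same scale gave means of 27.5 for Krt18, 14.3 for Krt8, 5.32 for Krt19 and 0.533 for Tead4, with the other 6 members at or below 0.0925. In E6.0 epiblasts Krt18 stood at 57.7 and Krt8 at 14.3, and the next member, Krt19, at 0.579. Krt19 was thus within reach of the keratin pair in AF and far below it in E6.0 epiblasts.

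**Figure D1:**
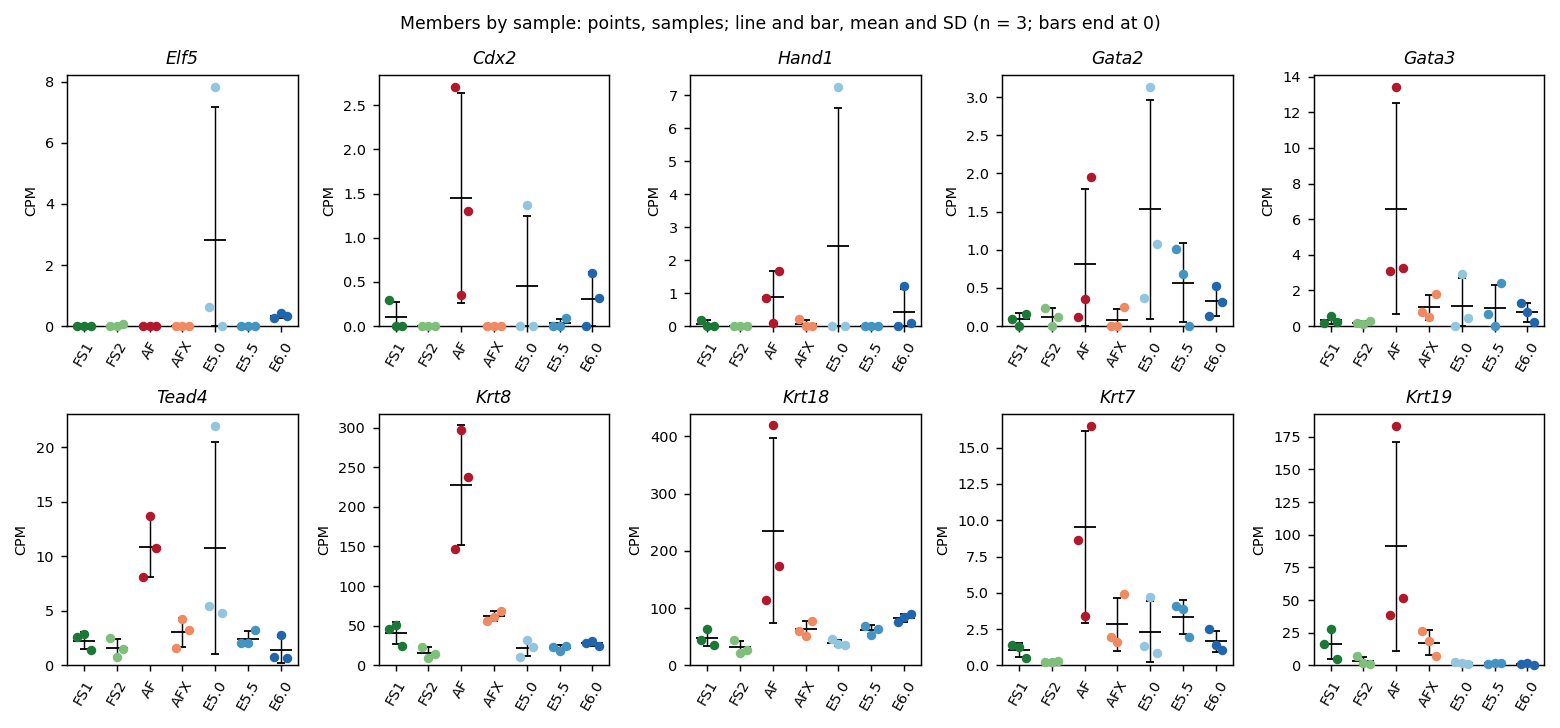
Level of each member in every sample, in CPM on a linear axis that differs between panels, by group. Points are samples (passages or embryos), the line is the group mean and the bar the SD (n = 3, cut at 0). The AF mean stands above the other cultured means for 9 of the 10 genes (all but Elf5), and 1 E5.0 epiblast (embryo 2) stands far above the others for Elf5, Hand1 and Tead4.

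Elf5 RNA was practically not found in culture. The 12 cultured samples held 1 Elf5 count together, in FS2 at passage 16, and AF, AFX and FS1 held 0. A count of 0 in 3 samples allows up to 0.0973 CPM in FS1, 0.0991 CPM in AF and 0.0859 CPM in AFX. Among epiblasts, embryos 1, 2 and 4 of E5.0 had 5, 40 and 0 counts, the 3 embryos of E5.5 had 0 each, and embryos 1, 2 and 3 of E6.0 had 2, 5 and 3. The stage means therefore rest on unequal grounds: 88.9% of the E5.0 counts came from embryo 2, while every E6.0 epiblast had some Elf5. By summed counts the E5.0 level was at least 19.8-fold higher and the E6.0 level at least 3.30-fold higher than the E5.5 level, taken against 3 counts over the group. Without E5.0 embryo 2 the first of these bounds was 2.88-fold and without E5.0 embryo 4 it was 32.3-fold. Without E5.5 embryo 3 the 2 bounds were 12.3-fold and 2.05-fold. Such ratios cover counting error only and carry no test between embryos. Elf5 (chromosome 2, 103411688 to 103450989, plus strand) did not pass the filter on low counts in any fit that used it.

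Among the cultured groups Cdx2 and Hand1 were highest in AF. Cdx2, the caudal-type factor of trophectoderm and posterior embryo, had 22, 4 and 14 counts in AF at passages 14, 15 and 16, or 2.71, 0.352 and 1.30 CPM. The 3 AFX samples had 0 counts, and of the 6 FS samples 5 had 0 and FS1 at passage 10 had 3. AF thus did not overlap with FS or AFX. Against FS this rests on 4 counts in AF at passage 15 and 3 in FS1 at passage 10. Their 95% counting intervals overlapped (0.0958 to 0.900 and 0.0614 to 0.870 CPM). The AF level per library was 31.0 times that of FS (95% interval of the counts 9.87 to 157) and at least 15.4-fold higher than in AFX. Without AF at passage 14 the ratio to FS was 19.0 (5.56 to 101) and the bound to AFX 9.46-fold, and without AFX at passage 14 that bound was 8.83-fold. Hand1, the factor of giant cells and of extraembryonic mesoderm, had 7, 1 and 18 counts in AF, 3, 0 and 0 in AFX, and 2 in FS1 at passage 10 with 0 in the other FS samples. The ratio of AF to FS was 30.2 (7.56 to 263) and the interval of the ratio of AF to AFX was 3.07 to 51.6, but AF at passage 15, with 1 count, lay within the range of the other groups. Without AF at passage 16, which held 69.2% of the AF counts, the Hand1 ratios were 14.4 to FS (2.88 to 140) and 4.78 to AFX (1.15 to 28.0), without AF at passage 15 they were 46.5 and 15.4, and without FS1 at passage 10, the only FS sample with Hand1, AF was at least 17.3-fold higher than FS. All 3 Hand1 counts in AFX came from passage 14, and without it AF was at least 5.74-fold higher than AFX. In the same AF passages the summed level of 11 primitive streak genes was 379, 188 and 686 CPM, lowest at passage 15 like Cdx2 and Hand1, and their part in these values was not tested.

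Gata2 was near its counting limit in FS and AFX and reached 21 counts in 1 AF sample. AF at passages 14, 15 and 16 had 1, 4 and 21 counts, AFX 0, 0 and 3, FS1 1, 0 and 2 and FS2 3, 0 and 2. The groups overlapped, and 80.8% of the AF counts came from passage 16, so the ratio of AF to FS of 7.55 (3.32 to 19.3) rests mainly on 1 passage, and was 2.26 (0.581 to 7.82) without it. AF at passage 16 was also the AF sample with the most Hand1 and Krt7, and the only cultured sample with counts of the placental homeobox gene Rhox6 (8 counts), which was named after its values were seen. Gata2 is on chromosome 6 at 88193891 to 88207032 (plus strand), Cdx2 on chromosome 5 at 147300805 to 147307270 (minus strand) and Hand1 on chromosome 11 at 57828705 to 57832818 (minus strand).

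In the cultured fit 6 members passed the filter: Gata3, Tead4 and the 4 keratins. The comparison of FS with AF asks how formative cells and EpiSCs differ, here for these genes. All 6 were lower in FS than in AF, where 19.5% of the 16052 genes tested were called in either direction (edgeR quasi-likelihood test, adjusted p under 0.05). The median log2 fold change of the 6 was -3.14, and that of all genes tested 0.02. For each of the 6, all FS samples lay below all AF samples, as they did for 10.8% of all genes tested. The other 4 members did not pass the filter and Gata3 passed it mainly through AF, so this is no count of the whole set.

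Gata3 showed the largest fall of the 6 tested members, but in the cultured fit it passed the filter mainly through AF, where it was highest. It had 25 to 153 counts per sample in AF, 4 to 22 in AFX and 1 to 5 in FS. AF at passages 14, 15 and 16 had 3.08, 13.4 and 3.25 CPM, FS1 had 0.198, 0.590 and 0.244, and FS2 had 0.161, 0.105 and 0.284. Gata3 fell by 4.64 ± 0.58 (SE, log2) from AF to FS (edgeR adjusted p = 7.79e-05), and fell by 3.57 without AF at passage 15 (adjusted p = 0.000689). Gata3 lies on chromosome 2 at 9857078 to 9890034 (minus strand), and its overlapping antisense gene Gm13256 had 0 counts in the table. Exons of Gata3 also overlap 9230102O04Rik on the same strand, and exons of Krt8 and Krt7 overlap Gm36026 and Gm671 on the opposite strand. These 3 genes were not analysed here, and without a stated strand setting reads shared with them cannot be told apart. Tead4, which unlike the others is also part of the general Hippo pathway output, had 8.14, 13.7 and 10.8 CPM in AF. FS1 had 2.58, 2.83 and 1.38 CPM of it and FS2 2.49, 0.738 and 1.48. Tead4 fell by 2.52 ± 0.37 (log2, adjusted p = 0.000277). It lies on chromosome 6 at 128224288 to 128300823 (minus strand).

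The keratins fell together from AF to FS. Krt8 had 147, 297 and 238 CPM in AF at passages 14, 15 and 16, against 45.9, 51.5 and 24.6 in FS1 and 23.4, 9.49 and 13.8 in FS2. This was a fall by 3.03 ± 0.45 (log2, adjusted p = 0.00104). Krt18 had 114, 420 and 173 CPM in AF, against 44.4, 63.3 and 35.3 in FS1 and 44.4, 22 and 27.8 in FS2. It fell by 2.59 ± 0.39 (adjusted p = 0.000988), and fell by 1.88 (log2) without AF at passage 15, where it was highest. Krt7, a keratin of trophoblast and glandular ducts, had 8.63, 3.43 and 16.5 CPM in AF and at most 1.39 CPM in FS. It fell by 3.93 ± 0.60 (adjusted p = 0.000459), and fell by 3.26 without AF at passage 16. Krt19, the smallest keratin, had 38.7, 183 and 51.9 CPM in AF, 16.6, 28.0 and 4.56 in FS1 and 7.31, 1.58 and 1.25 in FS2. It fell by 3.26 ± 0.90 (adjusted p = 0.0309), and the call was lost without AF at passage 15, where the fall was 2.24 (adjusted p = 0.151), and under 6 of the other 16 alternatives.

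The AF passages did not move as one. Passage 15 was highest for Gata3, Tead4, Krt8, Krt18 and Krt19, and lowest for Cdx2, Hand1 and Krt7. Passage 16 was highest for Hand1, Gata2 and Krt7, and passage 14 for Cdx2. Among the 9 members with at least 5 counts in AF, passage 15 was thus highest in 55.6%, where it was highest in 40.4% of all genes at that depth. The groups of genes that peaked in different passages cut across the division into factors and keratins.

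Genes of 3 other marker lists were also higher in AF. Summed CPM ran from 62.9 to 94.9 in AF and 7.25 to 12.9 in FS for 12 visceral endoderm genes, from 239 to 287 and 33.5 to 67.6 for 8 fibroblast genes, and from 188 to 686 and 34.9 to 149 for 11 streak genes. In FS against AF 4 of 4, 5 of 7 and 5 of 9 tested genes of these lists were called lower in FS. In AF the visceral endoderm genes Apoa4 and Afp were at 0 in all 3 samples and Cubn, the endocytic receptor with the highest mean of this list over all samples, at 0.264 to 0.464 CPM, while Gata6 had 14.2 to 22.6 CPM and Gata4 6.17 to 15.6. All 8 fibroblast genes had counts in AF, with Col1a1 leading at 85.4 to 103 CPM. The fibroblast surface gene Thy1, named after its values were seen, did not follow that list, with 1.33 ± 0.49 in FS against AF (log2, adjusted p = 0.0738). Eomes, with the highest mean of the streak list over all samples, had 53.3 to 134 CPM in AF. The part of such cells in the keratin and GATA values was not tested. The epiblast list went the other way, with a summed level of 1110 to 1688 CPM in AF, lowest at passage 15, and 1795 to 2719 in FS, without overlap. Of its 6 genes, all tested, Sox2 (0.89 ± 0.24, adjusted p = 0.0199) and Dnmt3b (0.97 ± 0.20, adjusted p = 0.00345) were called higher in FS and Nanog (-1.34 ± 0.32, adjusted p = 0.0109) lower, and these were named after their values were seen.

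General epithelial genes leaned lower in FS as well, but by less than the keratins. The median log2 fold change of the 10 simple epithelium genes was -0.66, against 0.02 for all genes tested. Their summed level was 1274 to 1606 CPM in AF and 946 to 1353 in FS, which overlapped only through FS1 at passage 11. Cdh1, the epithelial cadherin with the highest mean of the list over all samples, stood at 272 to 413 and 150.5 to 319.6 CPM. Of these 10, 2 were called lower in FS and 1 higher, where 19.5% of all genes were called in either direction. The called genes of this list, named after their values were seen, were the desmosomal linker Dsp (-2.40 ± 0.50, log2, adjusted p = 0.00725), Perp (-0.80 ± 0.20, adjusted p = 0.0116) and the adhesion molecule Epcam (0.58 ± 0.16, adjusted p = 0.0222). Extraembryonic mesoderm genes summed to 5.43 to 9 CPM in AF and 3.98 to 9.53 in FS, and Isl1, with the highest mean of that list over all samples, had 0.186 to 5.98 CPM in AF. Of its 3 tested genes 1 was called, the haemangioblast receptor gene Kdr, named after its values were seen. It had 3.58, 0.703 and 7.98 CPM in AF at passages 14, 15 and 16, lowest at passage 15 like Hand1, and at most 0.298 CPM in FS (-5.22 ± 0.80, adjusted p = 0.000394). Surface ectoderm and amnion genes summed to 4.08 to 5.89 CPM in AF and 2.1 to 4.82 in FS, led by Grhl3 (3.25 to 3.6 CPM in AF).

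Of 14 other trophoblast stem cell and extraembryonic ectoderm genes, 12 were tested. Where 19.5% of all genes were called in either direction, 7 of the 12 were called lower in FS than in AF, none higher. They were Tfap2c (-4.30), an AP-2 factor of trophoblast and germ cells, Bmp4 (-2.17), the signal from extraembryonic ectoderm to epiblast, Esrrb (-2.05), Eomes (-1.16), Id2 (-1.02), the proprotein convertase Furin (-0.95) and Ets2 (-0.49), all log2. Eomes is also on the streak list. The list's median was -1.09, against -3.14 for the 6 tested members. Tfap2c had 5.06 to 13.6 CPM in AF and 0 to 0.826 in FS, without overlap. Of 9 genes of differentiated trophoblast, 2 passed the filter, and their summed level overlapped between AF (3.96 to 6.03 CPM) and FS (2.49 to 5.31). Ascl2, the factor of the spongiotrophoblast lineage and, by its mean over all samples, the leading gene of this list, gave 1.09 ± 0.47 in FS against AF (log2, adjusted p = 0.124). Gcm1, the syncytiotrophoblast factor, fell by 2.49 ± 0.42 (adjusted p = 0.000801), from 2.11 to 2.96 CPM in AF to 0.227 to 0.708 in FS. Of genes named after their values were seen, the placental lactogen Prl3b1 was at 0 in all 21 samples and the spongiotrophoblast gene Tpbpa had 2 counts, both in AF at passage 16.

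Relatives of the members did not share 1 pattern. Of 16 paralogues 6 were tested in FS against AF. Gata6 fell by 7.03 ± 0.80 and Gata4 by 5.75 ± 0.88 (log2, adjusted p = 7.16e-05 and 0.000567), and both are also on the visceral endoderm list. Tead2, a paralogue active in the early embryo, rose by 0.34 ± 0.08 (adjusted p = 0.00756), opposite to Tead4. It had 138 to 156 CPM in AF and 180 to 194 in FS. The keratins of stratified epithelium Krt5 and Krt14, named after their values were seen, were at 0 in AF, FS1 and FS2.

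The AFX mean lay between those of AF and FS for each of the 6 tested members. Of these, 3 were called in AFX against AF, all lower, where 8.73% of all genes were called. Gata3 had 0.805, 0.5 and 1.83 CPM in AFX at passages 14, 15 and 16 and fell by 2.63 ± 0.64 (log2, edgeR adjusted p = 0.0192). Tead4 had 1.61, 4.25 and 3.24 CPM and fell by 1.87 ± 0.45 (adjusted p = 0.0179). Krt18 had 59.9, 50.9 and 78.0 CPM and fell by 1.91 ± 0.48 (adjusted p = 0.0327). Krt8, at 56.5, 60.7 and 68.7 CPM, was also lower than every AF sample, with -1.88 ± 0.55 (adjusted p = 0.0643). Krt8 was called under 4 of 13 alternatives. These were DESeq2 (adjusted p = 0.0116) and edgeR with AF and AFX alone (0.0029), separate FS lines (0.00513) or a block of passage number on AF and AFX alone (0.00333). Krt19 had 26.6, 18.6 and 7.31 CPM (-2.39 ± 1.10, adjusted p = 0.246), below each AF sample. Krt7 had 1.95, 1.62 and 4.90 CPM (-1.74 ± 0.67, adjusted p = 0.138), overlapping with AF. With the block of passage number Krt7 (adjusted p = 0.0306) and Krt19 (0.0407) were called too. AFX lay wholly below AF for 5 of the 6 tested members and for 13.1% of all genes tested. Without AF at passage 15 all 3 calls were lost, with -1.57 for Gata3 (adjusted p = 0.16), -1.67 for Tead4 (0.0541) and -1.19 for Krt18 (0.102). In that fit Cdx2 passed the filter through its AF counts alone, so its value there is not read as a call. Without AFX at passage 14 no member was called, and without AFX at passage 15 only Tead4 was. Krt18 was also lost without AF at passage 16 (adjusted p = 0.0505), without AFX at passage 16 (0.0659) and without a filter (0.0874).

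Summed levels of other lists were lower in AFX as well. Summed fibroblast genes ran from 41.9 to 65.8 CPM in AFX, visceral endoderm genes from 12.9 to 25.7 and streak genes from 81.1 to 177, all below AF, and their part in the members' values was not tested. Of 7 tested fibroblast genes 6 were called lower and Thy1 higher (2.29 ± 0.55, log2, adjusted p = 0.0181). Of the 14 other trophoblast stem cell genes, Tfap2c, Bmp4 and Furin were called lower in AFX (-2.98, -1.73 and -1.17, log2), 3 of 12 tested. Of the paralogues Gata4 (-3.59) and Gata6 (-2.88) were called lower. Of the 10 simple epithelium genes 4 were called lower, namely Cldn4, Cldn6 and Cldn7, which encode claudins of tight junctions, and Perp, all named after their values were seen.

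In FS against AFX 1 of the 6 tested members, Krt7, was called, where 8.7% of all genes were. The median log2 fold change of the 6 was -1.01, and that of all genes tested 0.004. The 6 FS samples of Krt7 lay between 0.211 and 1.39 CPM, below the lowest AFX sample at 1.62. All FS samples lay below all AFX samples for 7.59% of all genes tested. The fold change of Krt7 was -2.19 ± 0.63 (log2, edgeR adjusted p = 0.0449). The call was lost on leaving out any of FS1 passage 18, the FS2 passages and the AFX passages (adjusted p = 0.0598 to 0.27). The fold change was then -1.53 without AFX at passage 16 and between -2.44 and -2.01 in the other 6 of these fits, and with FS1 alone it was -1.44 (adjusted p = 0.262). With the FS lines as separate groups Krt8 was called (-1.31, adjusted p = 0.0124). With FS as 1 group Gata3 gave -2.01 ± 0.64 (adjusted p = 0.0662) and Krt8 -1.16 ± 0.46 (adjusted p = 0.162). Tead4, Krt18 and Krt19 gave -0.65 ± 0.40, -0.68 ± 0.40 and -0.87 ± 0.94. These intervals do not show that the groups were alike.

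Between the 2 FS lines no member passed the threshold, though Krt8 and Krt7 did not overlap, which held for 27.3% of all genes tested. None of the 6 tested members was called in FS2 against FS1 by edgeR, where 3.85% of all genes were. At an unadjusted p under 0.05 there were 3 of 6, against 17.4% of all genes, and DESeq2 called 1. Krt8 in all FS2 samples (9.49 to 23.4 CPM) was below all FS1 samples (24.6 to 51.5), with -1.39 ± 0.36 (log2, adjusted p = 0.0589). Krt7 stood at 0.211 to 0.284 CPM in FS2 and 0.488 to 1.39 in FS1 (-2.02 ± 0.78, adjusted p = 0.185). Krt18 and Krt19 overlapped between the lines. FS1 at passage 11 was highest in the line for 5 of the 6 members with at least 5 counts, against 32.2% of all genes at that depth, and passage 18 for none, against 35.3%. FS2 at passage 13 was likewise highest for none of 7, against 33.2%.

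**Figure D2:**
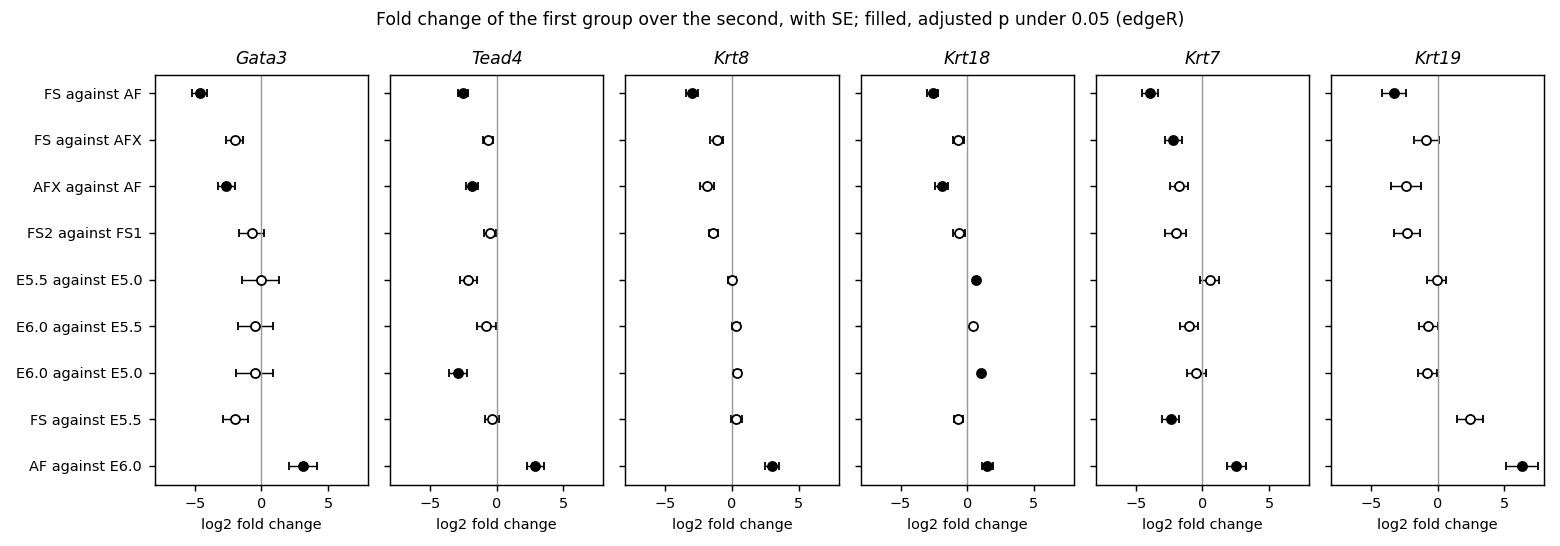
Log2 fold change of the first group over the second (x axis) for the 6 members tested in every fit, in 9 comparisons (rows). Points are edgeR estimates and bars their SE, and filled points passed an adjusted p under 0.05. All 6 points are filled and left of 0 for FS against AF, and all 6 are filled and right of 0 for AF against E6.0.

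Among the epiblasts, Krt18 rose with stage. E5.0 embryos 1, 2 and 4 had 45.3, 38.1 and 35.1 CPM, E5.5 embryos 1, 2 and 3 had 69.7, 53.4 and 64.0, and E6.0 embryos 1, 2 and 3 had 75.1, 84.6 and 89.0. The 3 stages did not overlap. Of all genes tested, 24.1% did not overlap in E5.5 against E5.0, 30.7% in E6.0 against E5.5 and 38.8% in E6.0 against E5.0. In E5.5 against E5.0, where 6.82% of 14228 genes were called, 1 of the 6 members tested was called, and this was Krt18, which rose by 0.65 ± 0.15 (log2, edgeR adjusted p = 0.0234). From E5.0 to E6.0 Krt18 rose by 1.05 ± 0.15 (adjusted p = 0.000286), and all 12 alternatives kept that call. The call from E5.0 to E5.5 was lost in 5 of 12: without E5.0 embryo 4 (0.57, adjusted p = 0.0594), E5.5 embryo 1 (0.56, 0.0919) or E5.5 embryo 3 (0.64, 0.0648), with the 2 groups alone (0.65, 0.0739) and with a block of embryo number (0.53, 0.131).

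Its partner Krt8 showed no such change past the threshold. It had 11.2, 31.8 and 22.7 CPM at E5.0, 23.7, 18.6 and 24.4 at E5.5 and 28.8, 30.6 and 24.5 at E6.0, so E5.0 overlapped with both later stages and the E6.0 embryos lay just above those of E5.5. E6.0 against E5.0 gave 0.35 ± 0.30 (log2, adjusted p = 0.45). None of the 6 tested members was called in E6.0 against E5.5 by edgeR, where 4.43% of all genes were, 1 had an unadjusted p under 0.05 (Krt18, 0.41 ± 0.15, adjusted p = 0.151), and DESeq2 called 0.

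Tead4 was the other epiblast call. It had 5.46, 22 and 4.8 CPM in E5.0 embryos 1, 2 and 4, 2.03, 2.06 and 3.26 at E5.5 and 0.788, 2.77 and 0.639 at E6.0. All E5.0 samples lay above all later ones. Of all genes tested, 11.2% lay wholly lower at E5.5 than at E5.0, and 18.1% wholly lower at E6.0 than at E5.0. In E6.0 against E5.0, where 21.8% of all genes were called, 2 of the 6 tested members were: Krt18, higher, and Tead4, which fell by 2.90 ± 0.70 (log2, adjusted p = 0.00956). Without E5.0 embryo 2 the fall was 1.84 (adjusted p = 0.0589). Over the same stages the summed level of the visceral endoderm genes was 327 to 932 CPM at E5.0, 47.1 to 91.0 at E5.5 and 26.4 to 35.1 at E6.0, all 12 had counts at E5.0, and Cubn alone had 150 to 629 CPM there. The part of that tissue in Tead4 and the keratins at E5.0 was not tested.

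The other tested members were variable within a stage. Gata3 had 0, 2.94 and 0.480 CPM at E5.0, 0.678, 0 and 2.42 at E5.5 and 1.31, 0.779 and 0.213 at E6.0, so at each of the 2 earlier stages 1 embryo gave most of the counts (78.9% and 81.2%). Krt7 had 0.839 to 4.71 CPM at E5.0, 1.96 to 4.07 at E5.5 and 1.06 to 2.49 at E6.0, and Krt19 0.532 to 2.48 over all 9. Neither Gata3, Krt7 nor Krt19 was called between any pair of stages, and their stage ranges overlapped throughout. Gata2 had 3, 16 and 9 counts at E5.0, 9, 6 and 0 at E5.5 and 1, 6 and 3 at E6.0. It was not tested, and its level by summed counts was 3.72 times as high at E5.0 as at E6.0 (1.75 to 8.59), but 2.09 times (0.828 to 5.40) without E5.0 embryo 2, which held 16 of the 28 E5.0 counts.

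A single E5.0 epiblast, embryo 2, carried most of the counts of the lowly expressed transcription factors of its stage. It had 40 of 45 Elf5 counts, 37 of 37 Hand1 counts, 7 of 7 Cdx2 counts, 16 of 28 Gata2 counts, 15 of 19 Gata3 counts and 112 of 196 Tead4 counts, from the smallest library of the series. It was the highest E5.0 sample for 8 of the 10 members (80%) and for 10 of 13 other trophoblast stem cell genes with at least 5 counts (76.9%), against 33.4% of all genes at that depth. The summed level of those other genes was 272 CPM in embryo 2 and 172 and 129.9 CPM in embryos 1 and 4, a smaller gap than for Elf5 or Hand1. The genes that follow were chosen after their values were seen. Plet1, a surface marker of extraembryonic ectoderm, had 14.7 CPM there and 1.99 and 1.08 in embryos 1 and 4. Fgfr2, the receptor through which FGF4 keeps trophoblast stem cells, had 37.9 against 2.48 and 3 CPM. Esrrb had 21, 0 and 3 counts and Sox21 16, 0 and 1 in embryos 2, 1 and 4. Visceral endoderm genes were also highest in embryo 2, at 932 CPM against 756 and 327.

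An E6.0 epiblast, again numbered 2, held most Cdx2, Hand1 and Tead4 counts of its stage. It had 7 of 10 Cdx2 counts, 14 of 15 Hand1 counts and 32 of 44 Tead4 counts, while its Elf5 count of 5 was close to the 2 and 3 of the other embryos. It was the highest E6.0 sample for 7 of the 10 members (70%) and for 8 of 12 other trophoblast stem cell genes with at least 5 counts (66.7%), against 31% of all genes at that depth, shares near those of E5.0 embryo 2. Among genes chosen after their values were seen, the streak factors T, Mixl1 and Evx1 had 163, 118 and 136 counts there, against 25, 5 and 28 in embryo 1 and 3, 2 and 3 in embryo 3. Mixl1 and Evx1 were at 14 and 12 counts in E5.0 embryo 2, where T was at 0. Plet1 was at 0.866 CPM in this epiblast and Fgfr2 at 19.2 CPM, within the 15.8 to 25.2 CPM of its stage.

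**Figure D3:**
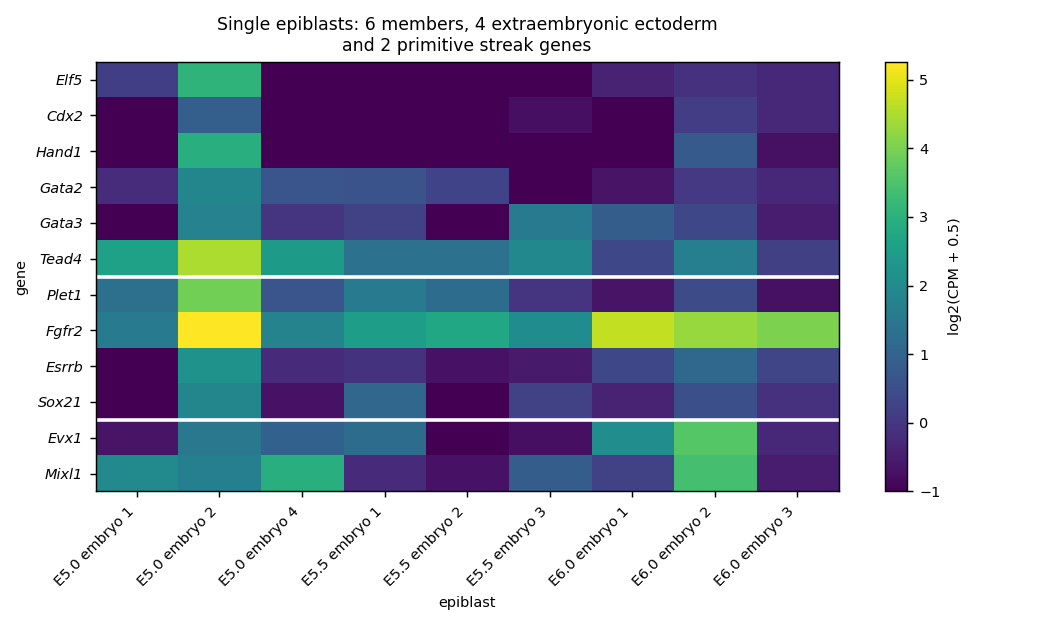
Level of 6 members (top), 4 extraembryonic ectoderm genes (middle) and 2 primitive streak genes (bottom) in the 9 single epiblasts, as log2(CPM + 0.5) by colour. Genes below the first white line were chosen after their values were seen. E5.0 embryo 2 is bright for Elf5, Hand1, Tead4, Plet1 and Fgfr2, E6.0 embryo 2 for Evx1 and Mixl1, and all 3 E6.0 epiblasts for Fgfr2.

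Of the other lists in E6.0 against E5.0, 10 trophoblast stem cell genes were tested and 2 were called. Of all genes tested 21.8% were called. Plet1 fell by 3.87 ± 1.12 (log2, adjusted p = 0.0249), and its E5.0 level was far highest in embryo 2. The placental cadherin Cdh3 rose by 0.83 ± 0.26 (adjusted p = 0.0349). Of 7 paralogues tested, Gata4 fell by 4.11 ± 0.48 (adjusted p = 5.01e-05) and Elf3, an epithelial relative of Elf5, by 1.34 ± 0.35 (adjusted p = 0.0147). Tead2 rose by 0.54 ± 0.10 (adjusted p = 0.00156), again opposite to Tead4.

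Culture and embryo were set side by side in the fit on all 21 samples, in which Cdx2 and Hand1 also passed the filter. In FS against E5.5 epiblasts 1 of 8 tested members was called, where 43.8% of 16614 genes were. The call was Krt7, which was lower in FS by 2.38 ± 0.62 (log2, edgeR adjusted p = 0.0037). All 6 FS samples were at or below 1.39 CPM and all 3 E5.5 epiblasts at or above 1.96. FS lay wholly below E5.5 in this way for 19.2% of all genes tested. Krt19 was higher in 4 of 6 FS samples than in every E5.5 epiblast (2.43 ± 0.99, adjusted p = 0.0583), Krt8 gave 0.33 ± 0.44 (adjusted p = 0.573) and Krt18 -0.66 ± 0.33 (adjusted p = 0.116). With FS1 alone Krt7 gave -1.64 (adjusted p = 0.0701). Gata3 gave -1.98 ± 0.94 (adjusted p = 0.0916) and was called without E5.5 embryo 2 (adjusted p = 0.0273). Tead4 (-0.37 ± 0.52), Cdx2 (0.27 ± 1.99) and Hand1 (1.76 ± 2.67) were not called.

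In AF against E6.0 epiblasts 6 of 8 tested members were called, all higher in AF, where 35.2% of all genes were called in either direction. Krt19 rose by 6.33 ± 1.18 (log2, adjusted p = 0.0007), from 0.532 to 1.90 CPM at E6.0 to 38.7 to 183 in AF. Gata3 (3.11 ± 1.04, adjusted p = 0.0236), Krt8 (3.03 ± 0.51, 0.000295), Tead4 (2.91 ± 0.62, 0.000949), Krt7 (2.54 ± 0.73, 0.00905) and Krt18 (1.51 ± 0.39, 0.0065) followed. Cdx2 (2.09 ± 1.27, adjusted p = 0.211) and Hand1 (0.88 ± 1.5, adjusted p = 0.685) were not called. Without AF at passage 15 Gata3 gave 2.05 (adjusted p = 0.196) and Krt18 0.79 (0.0642), without AF at passage 16 Krt7 gave 1.87 (0.0705), and without E6.0 embryo 2 or 3 Gata3 was not called either (0.0724 and 0.0999).

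The keratins also changed in proportion. The ratio of Krt8 to Krt18, both per kilobase, was 0.95, 0.519 and 1.01 in AF at passages 14, 15 and 16 and 0.692, 0.876 and 0.646 in AFX. It was 0.759, 0.597 and 0.512 in FS1 and 0.387, 0.316 and 0.364 in FS2, which did not overlap. E5.0 embryos 1, 2 and 4 had 0.181, 0.613 and 0.473, while the 6 later epiblasts lay between 0.202 and 0.281. Krt18 RNA thus exceeded Krt8 RNA on this scale in all samples but AF at passage 16, and the ratio was lower in every E5.5 and E6.0 epiblast than in every cultured sample. Krt19 to Krt18 was 0.0349 to 0.344 in culture and 0.00463 to 0.0424 in epiblasts, overlapping only through FS2 at passage 16. A processed pseudogene, Krt8-ps, is 98.62% identical to Krt8 over 941 bases and had 101 counts against 12989 for Krt8 over all samples, so reads shared between them are possible and Krt8 levels carry that uncertainty.

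**Figure D4:**
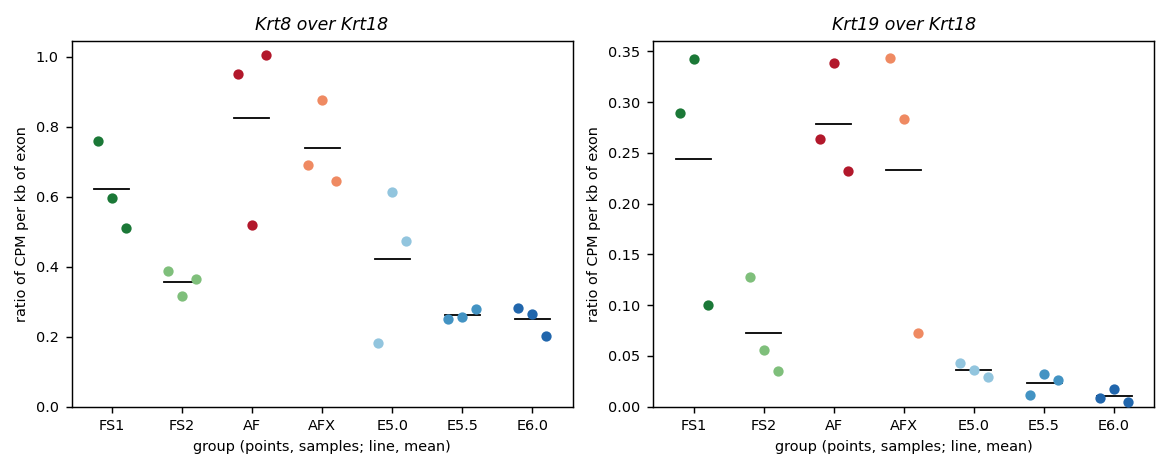
Ratio of Krt8 to Krt18 (left) and of Krt19 to Krt18 (right), each in CPM per kilobase of exon, by group. Points are samples and lines group means (n = 3), and both axes start at 0. In the left panel the E5.5 and E6.0 points lie at or below 0.281, and in the right panel the epiblast points lie at or below 0.0424.

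Members varied together more closely in culture than among the epiblasts for 26 of the 28 pairs of the 8 members compared. The median r of the pairs was 0.79 in culture and 0.23 in the epiblasts. Over the 12 cultured samples Pearson's r of log2 CPM was 0.95 for Krt8 with Krt18, 0.96 for Gata3 with Krt18 and 0.93 for Tead4 with Krt18. Over the 9 epiblasts the same pairs gave 0.31, 0.02 and -0.79. Other pairs were closer, with 0.91 in culture and 0.78 in epiblasts for Gata3 with Krt8 and 0.85 and 0.64 for Tead4 with Krt19. Cdx2 with Hand1 gave 0.90 and 0.94. The points share groups and libraries, so differences between group means, such as AF against the rest, enter these values. They are descriptions, with no values for pairs of all genes beside them. Many zeros enter every pair that holds Cdx2 or Hand1. Among 10186 genes compared over the 21 samples, those most like Krt8 were Actn1 (r = 0.94), Slit2 (0.93) and Bmp2 (0.92), and those most like Krt18 were Dstn (0.89), Ccni (0.86) and Krt8 (0.83). For Krt19 they were Col5a1, Csrp1 and Adgrg1 (0.90 each), and for Tead4 they were Tgfb1, Sfmbt2 and Lmna (0.89 each).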

How the data were processed

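The deposited values are raw counts per gene (whole numbers with differing totals), and the authors' steps are known from the submitters' processing notes, which name Trim Galore, TopHat2 2.1.0, featureCounts 1.5.0 and mm10. The annotation and strand setting are not given in the sources used here. Per the labels, total RNA was prepared with a PicoPure kit from 1000 cells or from 1 epiblast. Counts were analysed with edgeR 4.0.16 in R 4.3.3: filterByExpr, TMM, robust quasi-likelihood F-tests (two-sided) over all genes kept, and Benjamini-Hochberg adjustment with a threshold of 0.05. Cultured comparisons used the 12 cultured samples, with FS1 and FS2 as 1 group except against each other, stage comparisons the 9 epiblasts, and comparisons between them all 21. CPM are counts scaled by TMM library size, with exon lengths and positions from GENCODE M21 and Python 3.11.15. Ratios of summed counts have exact 95% intervals and, with 0 counts, a floor of 3 counts over the group, which cover counting error only.

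The 10 members, the 10 further marker lists (95 genes, 94 in the table) and the comparisons were chosen with earlier results of these data known. All members are named, with every gene past the threshold in FS against AF, AFX against AF or E6.0 against E5.0 from the lists of other trophoblast stem cell genes, differentiated trophoblast genes and paralogues, and for the other lists the summed level and the leading gene. Likeness was Pearson's r of log2 CPM (prior count 2) among genes with a group mean of at least 10 CPM. Copies were sought with BLAST 2.17.0. Replicates of a group differed by more than sampling noise (21 pairs, chi-square per degree of freedom 5.19 to 32.2). The fits were tested on simulated data. Alternatives were DESeq2 1.42.0, its size factors, fits on the 2 groups alone or on each FS line, a stricter filter (group mean of 5 CPM) and none, each sample left out, and replicate blocks. Leaving out samples from the ratios of summed counts was chosen after seeing the data.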

Additional observations from a re-analysis of the deposited data

Results flagged for a closer look

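Among the 6 FS samples, 1 sample stood apart from the other 5 for 4 members, by the gap to its nearest neighbour against the whole range. Cdx2 at 0.298 CPM (3 counts) and Hand1 at 0.198 CPM (2 counts) were found in FS1 at passage 10 and were at 0 in the other 5. Elf5 at 0.0569 CPM was a single count in FS2 at passage 16. Gata3 was 0.59 CPM in FS1 at passage 11 (5 counts), above 0.105 to 0.284 in the others. Chance marks about 1 in 20 groups in this way, a rate that does not hold for Elf5, Cdx2 and Hand1, since a gene with counts in a single sample meets the rule by construction. At 1 to 5 counts these values are close to the counting limit. FS1 at passage 10 also had more RNA of the streak genes T (307 counts), Mesp1 (67) and Evx1 (24) than any other FS sample, where T had at most 29, Mesp1 at most 1 and Evx1 0. These streak genes were chosen after their values were seen. The summed level of all 11 streak genes was 149 CPM there and 34.9 to 61.3 CPM in the other FS samples.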

How the results depend on the processing

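The 6 calls in FS against AF and the 6 in AF against E6.0 stayed within 1.5 times under every alternative run (5 to 6 and 4 to 6 on leaving out each sample), and E6.0 against E5.5 stayed at 0. Without a filter FS against AF gave 7, with Cdx2 (-4.71, adjusted p = 0.00156) and Hand1 (-4.45, 0.00802) called and Krt19 lost. Other counts moved, and the cause was not tested. FS against AFX (1) became 2 with DESeq2, with the FS lines as separate groups or with FS2 alone, 0 with FS1 alone, and 0 to 2 on leaving out each sample. FS2 against FS1 (0) became 1 with DESeq2, 4 without a filter, 1 at a mean of at least 5 CPM and 0 to 1 on leaving out each sample. E5.5 against E5.0 (1) became 2 with DESeq2, 4 without a filter (Elf5 and Hand1 included), 0 with the 2 groups alone and 0 to 1 on leaving out each sample. FS against E5.5 (1) became 2 with DESeq2, at a mean of at least 5 CPM or with FS1 alone, and 1 to 2 on leaving out each sample. E6.0 against E5.0 (2) gave 1 to 2 and AFX against AF (3) gave 0 to 3 on leaving out each sample. Same-numbered samples did not deviate together (AFX against AF r = -0.1245, -0.093 and 0.1958), so the numbers were not taken as a pairing. On the 2 groups alone AFX against AF gave 3, with Krt8 gained (adjusted p = 0.0029) and Gata3 lost (0.0547). With a replicate block added to that fit it gave 5, with Krt7 and Krt19 gained and Gata3 still not called (adjusted p = 0.111). With the block E5.5 against E5.0 gave 0. The block moved no other count by over 1.5 times.

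Of 772 alternative fold changes 19 changed sign, none of a called member. On leaving out each sample, E5.5 against E5.0 ranged from -0.29 to 0.39 for Krt8, from -0.27 to 0.21 for Krt19 and from -1.63 to 2.05 for Gata3. Gata3 ranged from -1.04 to 1.13 in E6.0 against E5.5 and from -1.11 to 1.59 in E6.0 against E5.0, where Krt7 ranged from -0.86 to 0.56, both highest without E5.0 embryo 2. In FS against E5.5 Cdx2 ranged from -1.94 (without FS1 at passage 10) to 2.21 and gave -0.35 with the lines separate and -1.93 with FS2 alone. In that comparison Hand1 ranged from 0 (without FS1 at passage 10) to 2.0, and Krt8 gave -0.51 with FS2 alone. In AF against E6.0 Hand1 ranged from -0.035 (without AF at passage 16) to 3.66. DESeq2 size factors moved the levels by 0.986 to 1.02 times and plain totals by 0.875 to 1.10 times. Depth limits Elf5, Cdx2, Hand1 and Gata2, which did not pass the filter in the fits of all cultured samples or all epiblasts.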
